A study of Mus musculus with 9 samples.

Results

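Atf4 and 9 genes of the integrated stress response were followed in total RNA sequencing of immortalized mouse macrophages: Ddit3, Trib3, Ppp1r15a, Asns, Psat1, Phgdh, Slc7a11, Chac1 and Vldlr. The 10 genes were chosen by symbol, with earlier results of these data known. All 10 were among the 25494 genes with a value in every library, and all 10 were listed in each of the 3 deposited comparison tables, which hold 11977 genes where TTP is set against GFP and 13205 genes in each of the other two.

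The 9 libraries fell into 3 groups of 3, named GFP, TTP and TTP-AA. All groups shared the same background, namely TTP-deficient bone marrow-derived macrophages that had been immortalized with hcmyc and hRasG12V and selected for the macrophage surface proteins CD11b and F4/80. Each group then carried 1 tet-inducible vector, for GFP alone, for GFP-TTP or for GFP-TTP-AA, a TTP that cannot be phosphorylated at the serines used by the stress-activated kinase MK2. Every group, the GFP controls included, received doxycycline (1 µg/ml, 6 h) and lipopolysaccharide (LPS, 1 µg/ml, 1 h). TTP, encoded by Zfp36, binds AU-rich sequences in 3′ UTRs and recruits enzymes that shorten and degrade the mRNA. Replicates are numbered 1 to 3 in each group, and the sources do not state whether they came from separate transductions, so p-values measure the spread between these samples. Per the methods, cells of all groups were rinsed with the translation inhibitor cycloheximide before lysis.

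The integrated stress response joins several kinases, each sensing a different stress, at a single event: the phosphorylation of translation factor eIF2. Most translation then slows, while the mRNA of Atf4 is translated more, because short upstream reading frames in its 5′ UTR otherwise divert ribosomes. ATF4 protein pairs with other bZIP factors and binds composite C/EBP-ATF elements in genes of amino acid synthesis, amino acid transport and glutathione metabolism. Since much of ATF4's control is exerted on translation and protein, RNA levels show its output more directly than its own activity.

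The words that ATF4 and related factors are known to bind were searched in the RefSeq promoter windows of the members (250 bases before to 50 after each start, GRCm38.p6), on both strands. The composite word TGATGNAA (TTNCATCA on the other strand) lay in the windows of 5 of the 10 genes, against 4.51% of the 27025 genes with a window. These sites are shown because the group is defined by ATF4, each 5′ to 3′ on the strand of its gene with the word in capitals.
Chac1, chr2:119351039-119351066: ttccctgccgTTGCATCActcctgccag
Trib3, chr2:152344029-152344056: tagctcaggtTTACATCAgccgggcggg
Slc7a11, chr3:50443662-50443689: ctcatgtggcTGATGCAAacctggagaa
Slc7a11, chr3:50443643-50443670: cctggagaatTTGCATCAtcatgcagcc
Asns, chr6:7693215-7693242: cccagccacaTGATGAAActtcccgcac
Vldlr, chr19:27216810-27216837: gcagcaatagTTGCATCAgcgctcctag
Chac1 and Vldlr lie on the plus strand and Trib3, Slc7a11 and Asns on the minus strand. Slc7a11 was the member with 2 copies, in opposite orientations and 19 bases apart.

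The full cAMP response word TGACGTCA was found in 1 member, Ppp1r15a, against 2.03% of genes. This stretch is shown because it sits 12 bases before the RefSeq start of a gene that fell in TTP.
Ppp1r15a, chr7:45526263-45526290, minus strand: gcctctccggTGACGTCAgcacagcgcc
The antioxidant response core TGACNNNGC was present in Asns, Phgdh and Ppp1r15a, against 13.99% of genes. These words can share letters with each other, but no 2 of the sites found in a member overlapped. A match describes the letters and is not a measured binding site.

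The AU-rich word TATTTAT, a core of the sequence that TTP is known to bind, was searched in the 3′ UTR of 1 GENCODE transcript per gene. It was present in 3 of the 10 members, Chac1, Ppp1r15a and Vldlr. Among the 10776 genes listed for TTP vs GFP that have an annotated 3′ UTR, 27.7% held it. These 3 stretches are shown because TTP is known to bind this word, with the word in capitals and in the DNA alphabet (GRCm38).
Chac1, chr2:119353776-119353798: tgaaccttTATTTATtgcaccat
Ppp1r15a, chr7:45522951-45522979: cctatTATTTATTTATTTATTTATttgaa
Vldlr, chr19:27251434-27251456: aaaaaggaTATTTATaattaaaa
Ppp1r15a held 4 overlapping copies within a 3′ UTR of 71 bases. Chac1 held 1 copy in 791 bases and Vldlr 1 in 5091 bases. The shorter word ATTTA occurred 11 times in the 7364-base 3′ UTR of Slc7a11, 12 times in that of Vldlr and once in that of Psat1, and neither word occurred in Atf4, Ddit3, Trib3, Asns or Phgdh. In the 5′ UTR, upstream ATGs were counted in 6 members, among them 3 in Atf4, 2 in Ddit3 and 7 in Ppp1r15a.

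The deposited library values are not raw counts. They are the means of the fitted model: on the log2 scale the 9 columns had 4 independent components where free columns would have 8, and the difference between same-numbered libraries matched the deposited log2 fold change up to a constant, within 1.5e-14. A fitted level therefore carries the library's depth, its replicate number and its group, but no scatter of its own, so errors below are the standard errors of the deposited log2 fold changes (DESeq2). The fitted means summed to between 21482954 and 102613526 per library, the highest in TTP-AA replicate 3. Levels are given after division by a library factor, in normalized reads, and log2 fold changes are given ± SE with 3 libraries per group.

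Zfp36 RNA was not called different between the TTP and GFP groups. By western blot the authors report GFP-TTP and GFP-TTP-AA protein at similar levels in these cells. Its group level was 1300 normalized reads in GFP, 1326 in TTP and 2112 in TTP-AA. Against GFP its log2 fold change was 0.04 ± 0.17 in TTP (adjusted p = 0.930) and 0.69 ± 0.17 in TTP-AA (adjusted p = 0.000682). Reads of the disrupted gene and of the transgene were counted together. All 10 macrophage markers had a value, led by Lyz2 at 585752, with a summed level of 595702 to 831758 in GFP, 497242 to 685890 in TTP and 679679 to 942942 in TTP-AA. The sum is mostly Lyz2. Emr1, which encodes the F4/80 protein used in selecting the cells, fell by 0.75 in TTP (SE 0.14, adjusted p = 1.27e-05) and rose by 0.68 ± 0.14 in TTP-AA (adjusted p = 7.03e-05), both against GFP. The Fc receptor gene Fcgr1 fell by 1.20 in TTP (SE 0.18, adjusted p = 2.99e-09). Between both forms Emr1, Fcgr1 and Lyz2 were higher in TTP-AA, by 1.43, 0.82 and 0.46. These 3 were the called genes among 10 macrophage markers in that comparison, a share of 30% beside 28.6% of all genes. Against GFP, 2 of 9 passed in TTP and 1 of 10 in TTP-AA, beside 9.16% and 17.9% of all genes. Of the 5 fibroblast and 3 lymphocyte markers with a value, none averaged 10 normalized reads or more. Of the 4 neutrophil and dendritic cell markers Flt3 was the highest, at 235, and Zbtb46 fell by 1.10 in TTP-AA against GFP (SE 0.23, adjusted p = 5.17e-05). The part of these differences in the results below was not tested. In bulk RNA, fewer cells with a transcript and less transcript per cell cannot be told apart.

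Per kilobase of exon, the levels of the 10 genes spanned a wide range. Atf4 was the most abundant, at 4839 normalized reads per kilobase. The serine synthesis enzymes Psat1 and Phgdh followed at 3224 and 2572, and the asparagine synthetase Asns at 1614. The phosphatase subunit Ppp1r15a stood at 636, the transcription factor Ddit3 at 285, the cystine transporter Slc7a11 at 209 and the pseudokinase Trib3 at 127. The glutathione-cleaving enzyme Chac1 at 61.7 and the lipoprotein receptor Vldlr at 7.97 were lowest. Thus, besides Atf4, the enzymes of amino acid synthesis were the abundant members, and Vldlr, which had the largest change in each comparison, was the scarcest.

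**Figure D1:**
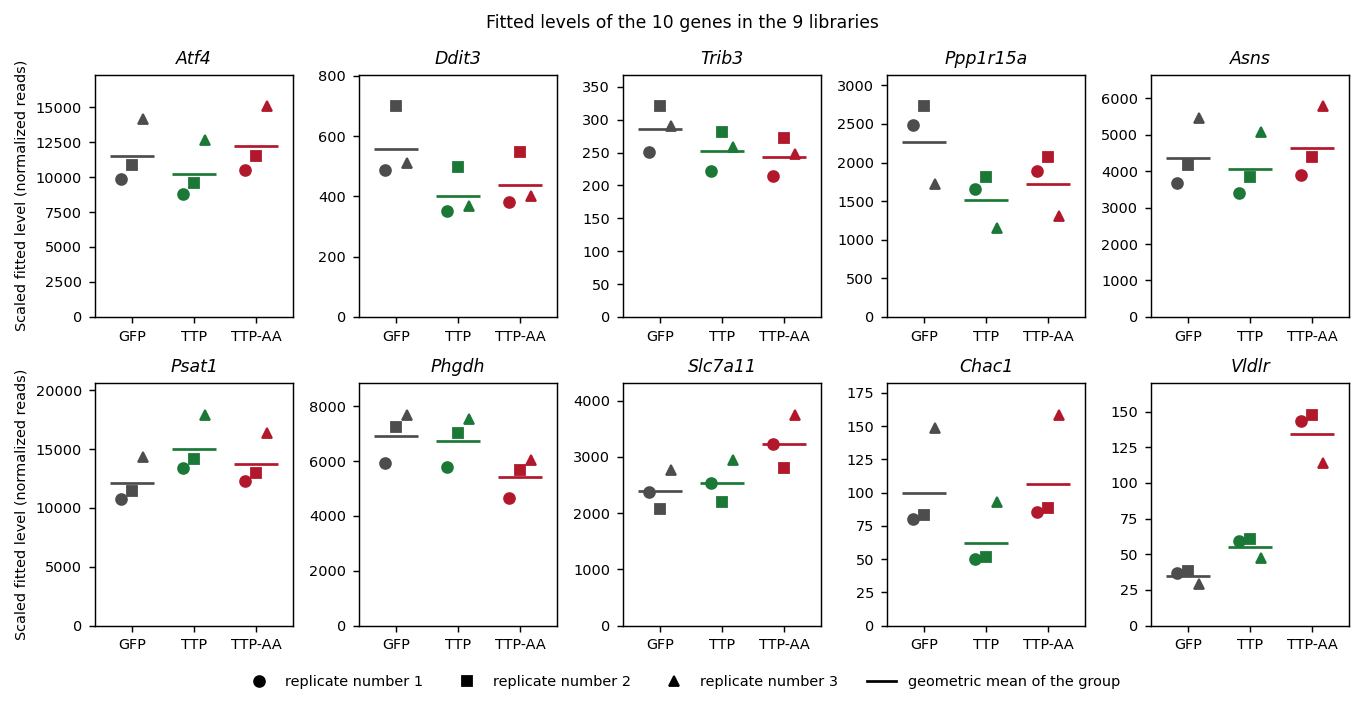
Fitted level of each of the 10 genes in the 9 libraries (vertical axes, normalized reads, each starting at 0), by group on the horizontal axes. Symbols mark the replicate number and bars the geometric mean of the group. The 3 groups of Vldlr do not overlap, whereas those of Atf4 overlap throughout.

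For wild-type TTP set against GFP, the question was which transcripts move when TTP is returned to cells that lack it. Here 3 of the 10 members passed an adjusted p of 0.05: Chac1 and Ppp1r15a were lower in TTP, and Vldlr was higher. Over all 11977 genes 9.16% passed, 4.08% higher and 5.08% lower. The median log2 fold change was -0.13 over the 10 members and 0.01 over all genes. These 3 were also the 3 members with TATTTAT in the 3′ UTR, in different directions. The match depends on Chac1, whose DESeq2 adjusted p was 0.0498, and 0.0503 when recomputed. It also depends on Vldlr, which did not pass after centring on its chromosome (adjusted p = 0.168). Over the listed genes with a 3′ UTR, 9.59% of those with the word and 9.71% of those without it passed the same threshold. In TTP-AA against GFP the shares were 22.8% and 17.6%, with median log2 fold changes of -0.07 and 0.02, and between both forms 31.0% and 30.4%. Genes with the word also had longer 3′ UTRs, with a median of 1993 against 700 bases.

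The same question was put for TTP-AA against GFP, and 2 of the 10 members passed, Vldlr upwards and Phgdh downwards. Of all 13205 genes, 17.9% passed, 9.11% higher and 8.77% lower. The members' median was 0.08, beside 0.00 for all genes.

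The comparison of both TTP forms sets cells with and without the MK2 phosphorylation sites of TTP side by side. These groups are separately transduced cells, and their Zfp36 RNA was not equal. For TTP-AA vs TTP its log2 fold change was 0.65 ± 0.17 (DESeq2 adjusted p = 0.000902). The separate parts of the sites, the Zfp36 level and other differences between the transduced cells were not tested. In this comparison 3 of the 10 members passed: Vldlr and Chac1 were higher in TTP-AA and Phgdh was lower. The background was 28.6% of 13205 genes, 14.0% higher and 14.6% lower, and the medians were 0.17 and -0.01. The member share was therefore close to the background here. In a test of any difference among the 3 groups, Chac1, Phgdh, Ppp1r15a and Vldlr passed, 4 of 10, where 33.1% of 11977 genes did. The comparisons share groups and are not independent of each other. Atf4, Ddit3, Trib3, Asns, Psat1 and Slc7a11 passed in none of the 3 comparisons.

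**Figure D2:**
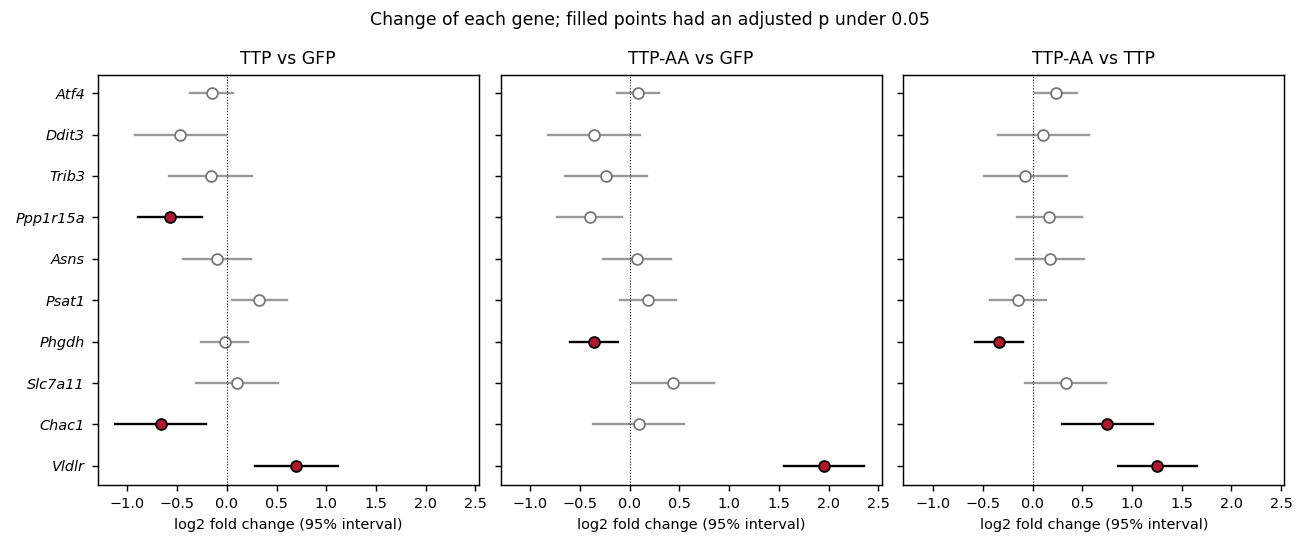
Log2 fold change of each gene with its 95% interval in the 3 comparisons (horizontal axes), filled where the DESeq2 adjusted p was under 0.05. Chac1, Ppp1r15a and Vldlr are filled on the left, Phgdh and Vldlr in the middle, and Chac1, Phgdh and Vldlr on the right.

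Atf4 (ENSMUSG00000042406, chr15:80255184-80257541, plus strand) encodes the bZIP activator at the centre of the response. Its fitted levels in GFP were 9869, 10829 and 14159 normalized reads in replicates 1, 2 and 3. In TTP they were 8808, 9591 and 12661. In TTP-AA they were 10510, 11495 and 15069. The 3 groups overlapped, and the library numbered 3 was the highest in each, which the additive model makes alike in all groups. Against GFP, Atf4 had a log2 fold change of -0.15 ± 0.11 in TTP (adjusted p = 0.449) and of 0.08 ± 0.11 in TTP-AA (adjusted p = 0.680). Between both TTP forms it was 0.24 ± 0.11, TTP-AA being the higher (adjusted p = 0.0901). The 95% interval of this last difference ran from 0.02 to 0.45, and that of TTP against GFP from -0.37 to 0.06. The median of the other genes on chromosome 15 was -0.10 for TTP-AA vs TTP, and relative to it Atf4 stood at 0.34 and passed the threshold (adjusted p = 0.0106).

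The genes whose pair of changes against GFP lay closest to those of Atf4, among 11142 genes with a mean of at least 50, were Atxn2l, Zfp959 and Tmem198b. The distance of Atxn2l on the log2 scale was 0.0036. The likeness rests on 2 fitted values over the 3 groups, and 803 genes lay within 1 SE of Atf4.

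Ddit3 (ENSMUSG00000025408, chr10:127290774-127296288, plus strand) encodes CHOP, a bZIP factor downstream of ATF4 that is linked to stress-induced cell death. Its fitted levels ran from 487 to 699 in GFP, from 350 to 498 in TTP and from 382 to 546 in TTP-AA. The GFP group was the highest, with overlap. Relative to GFP the log2 fold change was -0.47 ± 0.23 in TTP (adjusted p = 0.224) and -0.36 ± 0.23 in TTP-AA (adjusted p = 0.317), and the forms differed by 0.11 ± 0.23 (adjusted p = 0.781). Exons of Mars and Gm4189 lie on the other strand of Ddit3, and the sources used here do not state whether strand was used in counting.

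Trib3, a pseudokinase induced by ATF4 and CHOP that feeds back on them, varied less between groups than Ddit3, Chac1 and Vldlr, the other low genes. Its group levels were 286 in GFP, 253 in TTP and 244 in TTP-AA. The largest of its 3 log2 fold changes in size was -0.24 ± 0.21 for TTP-AA vs GFP (adjusted p = 0.503), with a 95% interval from -0.65 to 0.18.

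Ppp1r15a (ENSMUSG00000040435, chr7:45522916-45526268, minus strand) encodes GADD34, which directs a phosphatase to eIF2 and so ends the response. Its fitted levels in GFP were 2487, 2730 and 1717. In TTP they were 1661, 1810 and 1149, and in TTP-AA 1892, 2071 and 1305. TTP was the lowest group, and the ranges overlapped. The library numbered 3 was the lowest of each group, a pattern that the additive model makes alike in all groups. Ppp1r15a fell by 0.57 on the log2 scale in TTP (SE 0.17, adjusted p = 0.0107), to 0.673 of the GFP level. In TTP-AA the log2 fold change was -0.40 ± 0.17 (adjusted p = 0.0742), with a 95% interval from -0.73 to -0.08. The difference between the TTP forms, 0.17 ± 0.17, did not pass (adjusted p = 0.487), so a difference between them was not shown. Exons of Tulp2 overlap it on the other strand.

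Among the biosynthetic enzymes, Asns, which makes asparagine from aspartate and glutamine, was at group levels of 4374 in GFP, 4050 in TTP and 4628 in TTP-AA. Its log2 fold change was -0.10 ± 0.17 in TTP and 0.08 ± 0.17 in TTP-AA relative to GFP, and 0.17 ± 0.17 in TTP-AA relative to TTP. Not one of the 3 passed, the smallest adjusted p being 0.498.

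Phgdh (ENSMUSG00000053398, chr3:98313170-98339990, minus strand) encodes the dehydrogenase that starts serine synthesis from glycolysis. Its fitted levels were 5936, 7252 and 7687 in GFP and 5804, 7038 and 7531 in TTP. In TTP-AA they were 4656, 5671 and 6026. TTP-AA was the lowest group and overlapped both others. Phgdh fell by 0.36 on the log2 scale against GFP (SE 0.12, adjusted p = 0.0237) and by 0.34 against TTP (SE 0.12, adjusted p = 0.0245). Between TTP and GFP the log2 fold change was -0.02 ± 0.12 (adjusted p = 0.950). The other genes on chromosome 3 also had medians off 0, at -0.20 in TTP and -0.10 in TTP-AA, each against GFP. Relative to these medians Phgdh stood at 0.18 and -0.26, and neither passed (adjusted p = 0.480 and 0.138), while the fall against TTP was larger, at -0.43.

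Psat1, which carries out the transamination that follows Phgdh, had group levels of 12079 in GFP, 15015 in TTP and 13756 in TTP-AA. Its highest group was TTP, where Phgdh differed from GFP by less than its error. The log2 fold change for TTP vs GFP was 0.33 ± 0.14 (adjusted p = 0.141), with a 95% interval from 0.05 to 0.61. Psat1 lies on chromosome 19, where the median of the other genes was 0.20 in this comparison. For TTP-AA its log2 fold change was 0.18 ± 0.14 against GFP and -0.14 ± 0.14 against TTP, with neither passing. Whether Psat1 and Phgdh differ in their changes was not tested.

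Slc7a11 and Chac1 act on either side of glutathione: Slc7a11 is the cystine importer that supplies its cysteine, and Chac1 breaks it down. Slc7a11 had fitted levels of 2071 to 2759 in GFP, 2192 to 2948 in TTP and 2806 to 3747 in TTP-AA. All 3 TTP-AA values were above all 3 GFP values, but the log2 fold change of 0.44 ± 0.21 did not pass (adjusted p = 0.143). The ranges of these fitted values did not overlap in 24.9% of the 11977 genes either. The interval ran from 0.02 to 0.85.

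Chac1 (ENSMUSG00000027313, chr2:119351229-119354381, plus strand) was low throughout. Its fitted levels in GFP were 80.1, 83.1 and 148. In TTP they were 50.2, 51.7 and 93.1, and in TTP-AA 85.6, 88.5 and 158. The TTP group was the lowest, and overlapped the others only through its library numbered 3. Chac1 fell by 0.66 on the log2 scale in TTP relative to GFP (SE 0.23, adjusted p = 0.0498), and the adjustment recomputed over the listed genes gave 0.0503, on the other side of the threshold. In TTP-AA vs GFP its log2 fold change was 0.09 ± 0.23 (adjusted p = 0.855), and TTP-AA exceeded TTP by 0.75 ± 0.23 (adjusted p = 0.00731), a 1.69-fold difference. It was the single member called lower in TTP in both of these comparisons, by the deposited adjusted p. It holds the single TATTTAT shown above.

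The standard errors of Chac1 and Ddit3, 0.23 in each comparison, were within 0.001 of 0.2346, the largest in each table, which 379 genes reached to that distance for TTP vs GFP. Errors did not grow past this value in genes of any abundance, and Ddit3 had a mean normalized count of 488. Whether the fold changes were shrunken towards 0 is not stated in the sources used here. The sizes printed for any member, Vldlr included, can therefore be lower than the raw ratios. The same holds for differences between fitted levels, which matched the deposited log2 fold changes up to a constant.

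Vldlr (ENSMUSG00000024924, chr19:27216484-27254231, plus strand), a receptor for very low density lipoprotein and reelin that ATF4 can induce under endoplasmic reticulum stress, gave the largest changes of the 10. Its fitted levels in GFP were 36.8, 38.0 and 29.2. In TTP they were 59.4, 60.8 and 47.2, and in TTP-AA 144, 148 and 114. Its 3 groups were separate in every pair, as were those of 7.27% of the 11977 genes. Since fitted values carry no scatter, this says only that every pairwise difference between groups exceeded the range between replicate numbers. Vldlr was higher than in GFP by 0.70 ± 0.21 on the log2 scale in TTP (adjusted p = 0.0156, 1.62-fold) and by 1.96 ± 0.21 in TTP-AA (adjusted p = 7.68e-19, 3.88-fold). TTP-AA exceeded TTP by 1.26 ± 0.20 (adjusted p = 1.43e-08, 2.39-fold). The median of the other chromosome 19 genes was 0.20 for TTP vs GFP, and relative to it the rise in TTP was 0.50 and did not pass (adjusted p = 0.168). On the same footing the values for TTP-AA were 1.85 against GFP and 1.37 against TTP, and both passed. Vldlr had a mean normalized count of 80.3, and holds both a composite ATF4 word and a TATTTAT word.

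The members differed among libraries by replicate number as well as by group. The authors' model has a term for library date, and the fitted means split by replicate number, alike in every group. In 8 of the 10 members the range between replicate numbers was larger than that between groups, beside 60.3% of the 11977 genes in all 3 tables. Vldlr was an exception, with a log2 range of 0.37 between numbers and 1.96 between groups, and Slc7a11 the other, with 0.42 and 0.44. Asns lay at the opposite end, with 0.57 between numbers and 0.19 between groups.

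The direction of this difference was not shared by all members. Atf4, Asns, Psat1, Phgdh, Slc7a11 and Chac1 were all highest in the libraries numbered 3. Relative to number 1, the log2 difference was 0.52 for Atf4, 0.57 for Asns, 0.42 for Psat1, 0.37 for Phgdh and 0.89 for Chac1. For Chac1 99.1% of genes had a lower value, for Asns 97.2% and for Atf4 96.3%. Ddit3 and Trib3 were highest in the libraries numbered 2. Ppp1r15a and Vldlr were lowest in those numbered 3, at -0.53 and -0.33 relative to number 1. The median over the 10 members was 0.30, and that of all genes was -0.01. The values used here hold no error for this term, so these are descriptions with no test.

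**Figure D3:**
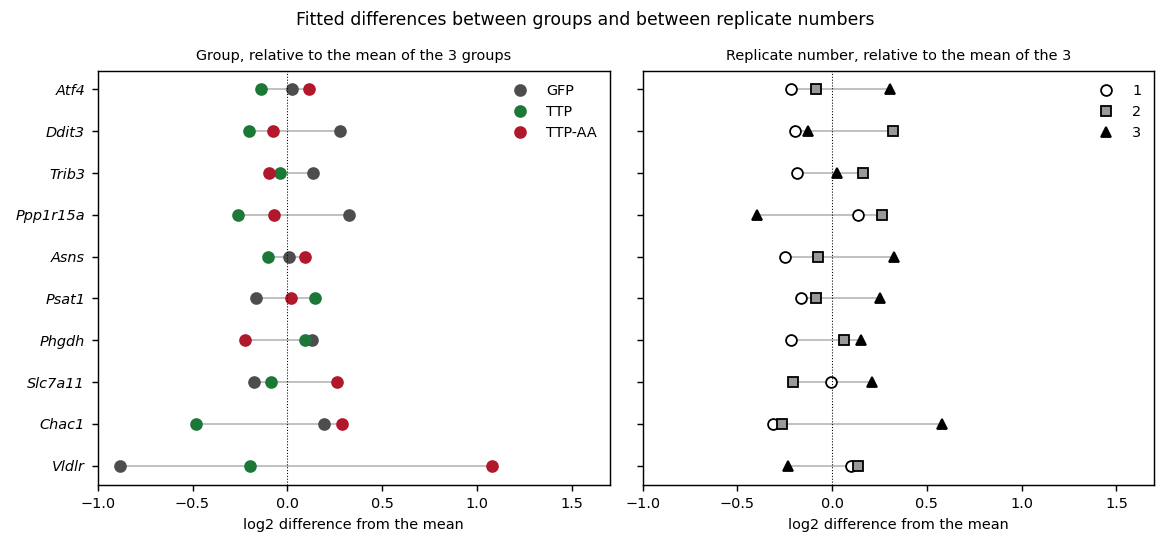
Fitted log2 differences of each gene from its own mean, between the 3 groups (left) and between the 3 replicate numbers (right), on the same horizontal scale. Vldlr spreads most by group, and Chac1 by replicate number.

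Other genes of the response were read from 9 lists holding 94 genes. Few of them moved with wild-type TTP: 2 of 90 listed genes passed for TTP vs GFP, beside the background of 9.16%. The rise was in Shmt1, a serine hydroxymethyltransferase of one-carbon metabolism, at 0.47 ± 0.10 (adjusted p = 5.32e-05). The fall was in Xpot, the exporter of tRNA from the nucleus, at -0.27 ± 0.09 (adjusted p = 0.0326). Relative to the other genes of its chromosome Xpot stood at -0.14 and was not called (adjusted p = 0.448), nor was it once the trend with GC and length was removed (adjusted p = 0.0931). With TTP-AA, 23 of 92 passed against GFP (8 higher, 15 lower) and 29 of 92 against TTP (8 higher, 21 lower), beside backgrounds of 17.9% and 28.6%.

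Upstream of Atf4 stand the kinases and regulators of eIF2 phosphorylation. Of 10, none passed for TTP vs GFP, and 2 passed (20% of the list, beside 17.9% of all genes) in TTP-AA against GFP: the adaptor Nck1 rose by 0.37 ± 0.14 (adjusted p = 0.0398) and Dnajc3, an inhibitor of the kinase PERK, fell by 0.39 (SE 0.09, adjusted p = 0.000161). Against TTP 2 passed, both lower, beside 28.6% of all genes: Dnajc3 fell by 0.35 (SE 0.09, adjusted p = 0.000548), and Gcn1l1, an activator of the eIF2 kinase GCN2, fell by 0.31 (SE 0.09, adjusted p = 0.00186). Of the 8 subunits of eIF2 and its exchange factor eIF2B, none passed against GFP in TTP or TTP-AA, beside 9.16% and 17.9% of all genes. For TTP-AA vs TTP 1 passed, a share of 12.5% beside 28.6% of all genes. This was Eif2b3, which fell by 0.28 (SE 0.11, adjusted p = 0.0347).

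The bZIP partners and other stress regulators passed the test in comparisons with TTP-AA. Of 8, none passed in TTP against GFP. In TTP-AA 4 passed against GFP (50%) and 5 against TTP (62.5%), all of them higher. Over all genes 17.9% and 28.6% passed in these comparisons, 9.11% and 14.0% of them all being called higher. The list median was 0.59 for TTP-AA vs TTP, beside -0.01 for all genes. Jdp2, a bZIP repressor, rose against TTP by 0.93 ± 0.23 (adjusted p = 0.000682) and against GFP by 0.81 ± 0.23 (adjusted p = 0.00601). Sesn2, a sestrin that restrains mTORC1 and is induced by ATF4 and by p53, rose against TTP by 0.81 ± 0.11 (adjusted p = 1.62e-11). Its rise against GFP was 0.68 ± 0.11 (adjusted p = 4.82e-08). Atf5, Ddit4 and Nupr1 were the other risers in TTP-AA vs TTP. Atf3 and Cebpb, both LPS-inducible, gave 0.04 ± 0.13 and 0.04 ± 0.14 and did not pass.

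With the exception of Slc3a2, the genes for handling amino acids that passed with TTP-AA were lower. Of 20 cytosolic aminoacyl-tRNA synthetases, which ATF4 can induce, 6 passed for TTP-AA vs TTP, all lower. Their share was 30%, beside 28.6% of all genes called and 14.6% called lower. Vars was the furthest at -0.46 ± 0.11 (adjusted p = 0.000147). Against GFP 2 of the 20 passed, both lower, or 10% beside 17.9% called and 8.77% called lower. In the serine, one-carbon and proline list 3 of 11 passed against TTP, all lower, a share of 27.3% beside the same 28.6% and 14.6%. Shmt1 fell by 0.77 (SE 0.10, adjusted p = 1.59e-13), and the member Phgdh, as given above, by 0.34. Against GFP 3 of the 11 also passed, all lower, again 27.3%, beside 17.9% of all genes called and 8.77% called lower. Among them Pycr1, a proline-making reductase with a mean normalized count of 77.2, fell by 0.57 (SE 0.22, adjusted p = 0.0480). Of 7 amino acid transporters listed, the arginine transporter Slc7a1 fell in both comparisons, by 0.23 against GFP (SE 0.08, adjusted p = 0.0385) and 0.27 against TTP (SE 0.08, adjusted p = 0.00697). Slc3a2, the heavy chain that partners Slc7a11, rose by 0.33 ± 0.10 against GFP (adjusted p = 0.00726).

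The 6 other listed ATF4-linked genes included the proapoptotic Bbc3, which rose by 0.97 ± 0.11 against GFP (adjusted p = 1.69e-16) and by 0.87 ± 0.11 against TTP (adjusted p = 1.10e-13), and which p53 also controls. Vegfa, an angiogenic factor, fell by 0.61 against GFP (SE 0.19, adjusted p = 0.0126). The NRF2 list shares Slc7a11's link to glutathione. Its member Nqo1, a quinone reductase with a mean normalized count of 20.95, rose by 0.80 ± 0.21 against GFP (adjusted p = 0.00218) and by 0.73 ± 0.21 against TTP (adjusted p = 0.00339), while Hmox1, which degrades heme, fell by 0.68 against TTP (SE 0.17, adjusted p = 0.000509). Of this list, 1 of 8 passed against GFP (12.5%, beside 17.9% of all genes) and 3 of 8 against TTP (37.5%, beside 28.6%).

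The ATF6 and IRE1 branches of the unfolded protein response run beside the PERK branch that feeds ATF4. Of their 14 genes, none passed in TTP against GFP, where 9.16% of all genes did. In TTP-AA against GFP 6 passed, all lower, a share of 42.9% beside 17.9% of all genes. The list median was -0.24, beside 0.00 for all genes. Xbp1, the factor spliced by IRE1, fell furthest, by 0.43 (SE 0.10, adjusted p = 0.000506). For TTP-AA vs TTP, 6 passed lower and 1 higher, a share of 50% beside 28.6% of all genes. The chaperone Hspa5 fell by 0.51 (SE 0.09, adjusted p = 7.80e-08) and Dnajb9, an Hspa5 co-chaperone, rose by 0.40 ± 0.15 (adjusted p = 0.0262).

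**Figure D4:**
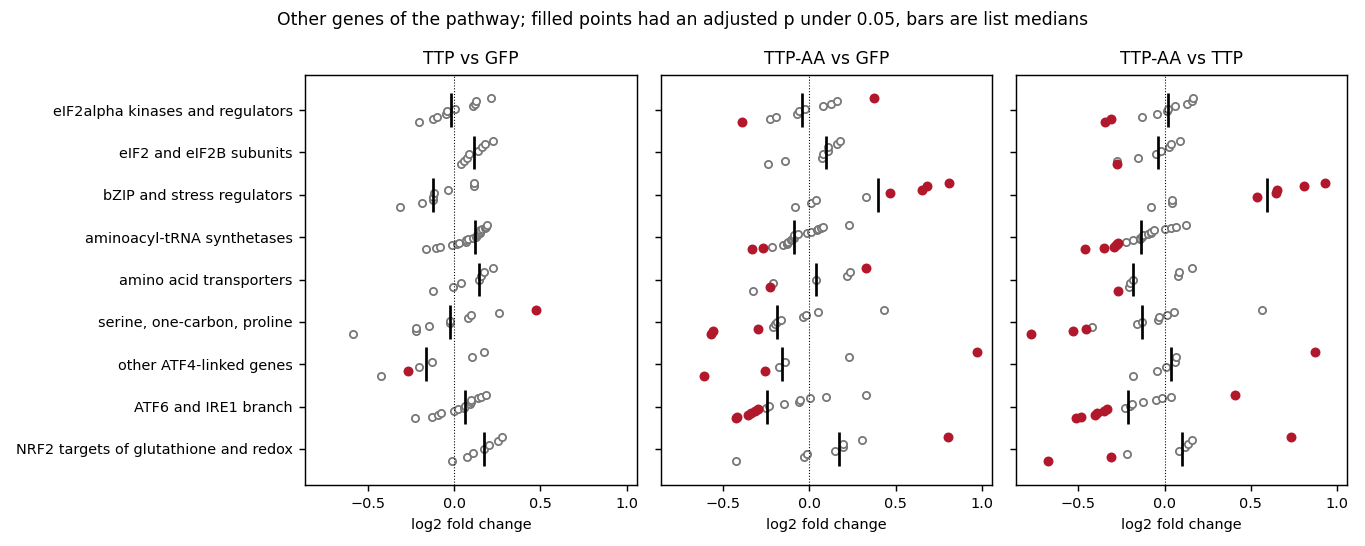
Log2 fold change of every listed gene of the 9 lists in the 3 comparisons (horizontal axes), filled where the DESeq2 adjusted p was under 0.05, with the list median as a bar. With TTP vs GFP 2 points are filled. With TTP-AA the filled points of the bZIP and stress regulators lie above 0, and those of the aminoacyl-tRNA synthetases below it.

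By replicate number the lists also stood apart from each other. Relative to number 1, 18 of 20 aminoacyl-tRNA synthetases and 7 of 8 eIF2 and eIF2B subunits were higher in the libraries numbered 3, as were 8 of the 10 members, beside 48.4% of all genes. In the ATF6 and IRE1 list this held for 3 of 14.

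Most of these calls were lost under a wider error. The Wald scores of all genes had a central spread of 1.51, 1.77 and 2.17 in the 3 comparisons, where unchanged genes alone would give a spread of 1. After division by that spread, Vldlr in TTP-AA vs GFP stayed past the threshold (adjusted p = 3.62e-05), and no other member passed in any pairwise comparison. Among the listed genes named above, Bbc3 and Sesn2 stayed in both comparisons with TTP-AA, and Shmt1 in TTP-AA vs TTP.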

How the data were processed

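Total RNA depleted of ribosomal RNA was sequenced from 9 libraries as single reads. Per the labels and the methods, the authors trimmed reads with Trim Galore, aligned them to GRCm38 with TopHat2 (2.0.12 in the labels) allowing a read up to 2 placements, counted them with HTSeq and fitted DESeq2 1.6.3 with terms for library date and condition, a Wald test, Benjamini-Hochberg adjustment and no Cook's filter. The deposited library table is named as normalized counts. It was tested and holds fitted means. These signal values were made by the authors with the fitted DESeq2 model, still scaled to each library's depth, and the mean normalized count per gene is in the deposited comparison tables. The deposited comparison tables hold log2 fold changes and their SE, the Wald score, the p-value and the adjusted p-value, and were used because the library table holds no scatter. The score equalled the ratio of the log2 fold change to its SE. Each table repeated 3 identifiers, which were counted once.

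Here, levels were divided by the median ratio of each library to the geometric mean library over 11977 genes, so ratios of these levels can differ slightly from the deposited log2 fold changes. A gene was called at an adjusted p under 0.05. Intervals (95%) are from the SE. The 3-group test was a Wald chi-square on both changes against GFP, with the covariance from the 3 SE and Benjamini-Hochberg adjustment over 11977 genes, checked on simulated data. Python 3 was used with pandas and scipy. No raw count was used, so no count test was run here. The 10 genes and the pathway lists were chosen with earlier results of these data known. Besides the 10 genes, the text names per list and comparison the called gene with the largest rise and the largest fall and the 3 largest called changes over all lists, and the 3 genes nearest Atf4 with a mean of at least 50. Atf3, Atf5, Cebpb, Ddit4, Nupr1, Gcn1l1, Emr1, Fcgr1, Lyz2, Flt3 and Zbtb46 were named after their values were seen.

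Annotation was GENCODE on GRCm38, and promoter windows were RefSeq's, found for all 10 genes. Psat1 and Vldlr have 2 windows each. Alternatives were another adjustment, a mean of at least 50, scaling of the Wald scores, and centring on all genes, on the chromosome or on GC content and length.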

Additional observations from a re-analysis of the deposited data

Results flagged for a closer look

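For 3 members the change against GFP differed between TTP-AA and TTP, by the deposited DESeq2 test of TTP-AA vs TTP. Vldlr was 1.26 higher in TTP-AA on the log2 scale, with both forms above GFP. Chac1 was 0.75 higher in TTP-AA, with TTP below GFP and TTP-AA level with it within error. Phgdh was -0.34 in TTP-AA relative to TTP, where TTP and GFP differed by -0.02. Single libraries that stand apart could not be searched for, because fitted means hold no scatter and each group has 3 libraries.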

How the results depend on the processing

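No paired analysis was possible because same-group libraries carry no scatter of their own in the fitted means, and the authors' model already holds a term that splits the libraries by replicate number. For the same reason, leaving out each replicate, limma with or without a replicate block, and other pseudocounts were not run. Of 210 values of a member under an alternative, 196 kept their direction and side of the threshold, 11 fell below the threshold, 1 passed it and 2 turned in sign. After centring on the chromosome, Phgdh in TTP vs GFP became 0.18 and Ddit3 in TTP-AA vs TTP became -0.041, neither called before or after, 1 member was called for TTP-AA vs GFP in place of 2, and 1 listed pathway gene for TTP vs GFP in place of 2. When each Wald score was divided by the central spread of its table, the members called against GFP were 0 in TTP and 1 in TTP-AA, with 0 between both forms and 1 among the 3 groups (there with the mean of the 3 spreads). Pathway list genes called then were 0, 2 and 3. Calls over all genes fell from 1097 to 249, from 2361 to 197 and from 3780 to 264, and from 3965 to 483 among the 3 groups. Scaling by the library sum left each difference of group levels within 1 SE. After chromosome centring Xpot, Nck1, Pycr1, Slc3a2, Slc7a1 against GFP and Dnajb9 were no longer called, and Xpot was also lost once the trend with GC and length was taken out. After that last step the calls for TTP vs GFP were 657 higher and 531 lower, in place of 489 and 608, and those for TTP-AA vs TTP were 1567 and 2405, in place of 1855 and 1925. The causes were not tested. Of the 10 members, Vldlr and Chac1 had the lowest mean counts, and of the named list genes Nqo1 fell under the filter at a mean of 50.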
